A study of Homo sapiens with 6 samples.

Results

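The CCN family is a group of 6 secreted matricellular proteins, CCN1 to CCN6, known earlier as CYR61, CTGF, NOV, WISP1, WISP2 and WISP3. Its members here are the 15 probe sets that the platform annotation assigns to exactly 1 of these genes, of 49293 probe sets that are not array controls. CCN1 had 2 probe sets, CCN2 had 3, CCN3 had 2, CCN4 had 4, CCN5 had 1 and CCN6 had 3. They were measured in LX-2, an immortalised human hepatic stellate cell line, on 6 Affymetrix 3′ expression arrays. All cells were held without serum for 12 h. Then 3 samples were given recombinant human BMP9 at 50 ng/ml for 24 h and 3 controls were given 0 ng/ml. The labels call the samples of a group biological replicates without naming separate cultures, so errors describe the spread between these samples, which may be technical. LX-2 is a single line, and no primary stellate cell was measured.

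CCN proteins are built from modules shared with insulin-like growth factor binding proteins, von Willebrand factor and thrombospondin, and all but CCN5 end in a cystine knot. They are not structural parts of the matrix. They act by binding integrins and heparan sulphate proteoglycans on cells and growth factors around them. In liver, CCN2 is known as a profibrotic product of stellate cells, and CCN1 is known to push activated myofibroblasts into senescence. BMP9, the product of GDF2, signals through SMAD1/5/9, and CCN1 and CCN2 are known early BMP9 targets in mesenchymal progenitor cells. Both genes are also textbook targets of YAP/TAZ with TEAD and of SRF.

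CCN1 doubled with BMP9 in the brighter of its probe sets, and this was the only CCN probe set called in the fit across all probe sets. No other member reached that size of change. CCN2 was dim in all its probe sets. The brightest probe sets of CCN3 and CCN4 differed by -0.20 and -0.24 on the deposited scale, neither called. Within CCN3, CCN4 and CCN6, probe sets had differences of opposite sign, in CCN4 with 3 positive ones of only 0.01 to 0.04. The family was chosen by the measured BMP9 difference of CCN1, which was known beforehand, and its rule names the same contrast. Member differences are therefore given with the standard error (SE) and 95% interval of limma, without a p, and nothing is read from the counts of calls.

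RefSeq windows of GRCh38.p14 were at hand for CCN2 and CCN6, 2 of the 6 genes. Those of CCN1, CCN3, CCN4 and CCN5 are not used here. The 250 bases before the start of each gene are shown because CCN2 is the standard example of a TEAD-driven promoter. Its motif can be set beside the CCN2 values that follow. The CCN2 stretch lies on the minus strand at chr6:131951373-131951622 and the CCN6 stretch on the plus strand at chr6:112053854-112054103, both written 5′ to 3′. Capitals mark GGAATG, the TEAD element, and TATAAA, the TATA box, on either strand.
CCN2: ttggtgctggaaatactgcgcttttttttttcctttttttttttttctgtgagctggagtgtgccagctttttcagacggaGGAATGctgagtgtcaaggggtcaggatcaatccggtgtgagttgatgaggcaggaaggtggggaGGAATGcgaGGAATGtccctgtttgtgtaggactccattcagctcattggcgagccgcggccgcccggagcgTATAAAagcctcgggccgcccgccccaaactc
CCN6: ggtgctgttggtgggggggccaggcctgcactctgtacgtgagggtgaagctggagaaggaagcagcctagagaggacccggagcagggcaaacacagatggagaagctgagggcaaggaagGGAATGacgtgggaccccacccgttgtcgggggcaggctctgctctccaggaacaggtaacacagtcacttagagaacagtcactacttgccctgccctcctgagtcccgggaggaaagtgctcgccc
The window searched ran on to 50 bases after the start. CCN2 held 3 GGAATG, beginning 169, 104 and 95 bases before the start, and TATAAA 32 bases before it. CCN6 held 2 GGAATG, 1 of them 128 bases before the start and the other across the start on the opposite strand. GGAATG was found at least once in 14.0% of 35116 RefSeq windows of this length, 3 or more times in 0.128%, and TATAAA in 11.5%. Neither window held the GC-rich SMAD1/5 elements GGCGCC (19.2% of windows) and GGAGCC (36.0%). They also lacked GTCTAGAC (0.202%), the AP-1 element TGANTCA (7.71%) and the CArG box of SRF (1.29%). All motifs were searched on both strands and none overlapped another. A match is a description of letters, not of binding, and a missing match says only that these letters are not in this window.

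CCN1 encodes a ligand of several integrins. Its brighter probe set, 11749905_a_at, stood at log2 values of 7.01, 7.29 and 7.36 on the control arrays and at 8.29, 8.09 and 8.30 on the BMP9 arrays. Every BMP9 array lay above every control array, by more than the range within either group. The means were 7.22 ± 0.18 and 8.23 ± 0.12 (SD, n = 3 arrays per group), a difference of 1.01 (SE 0.11, 95% interval 0.78 to 1.24), or 2.01-fold. Leaving out each array in turn gave differences of 0.91 to 1.08. By size of difference this probe set ranked 39 among the 49293, and its mean level lay at percentile 98.0 of all probe sets. The family was chosen by this CCN1 difference, so its rank and its range with arrays left out are description only. The second CCN1 probe set, 11715493_a_at, read 2.11, 2.21 and 2.08 in control and 2.35, 2.29 and 2.60 with BMP9. It differed in the same direction by 0.28 (SE 0.096, 95% interval 0.07 to 0.50) and was not called. Its values lie near the dim end of the arrays.

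**Figure D1:**
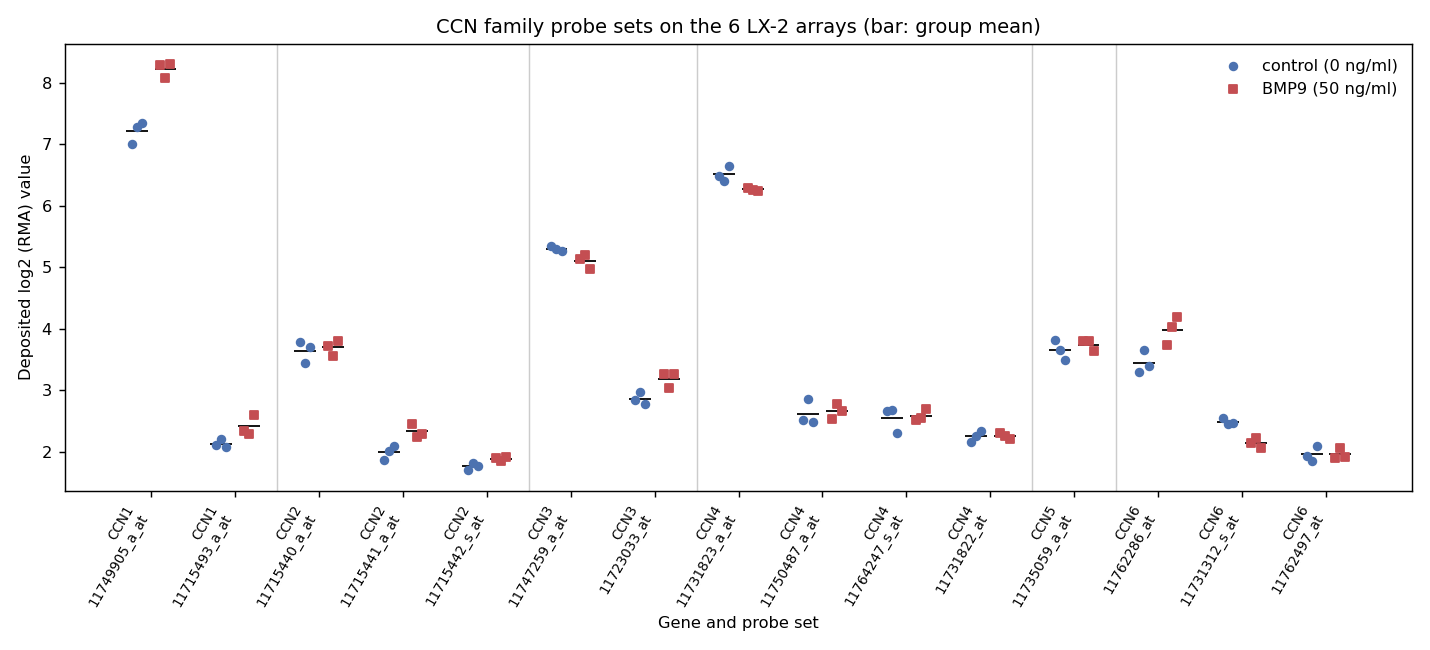
Deposited log2 values of the 15 CCN probe sets on each array, with control arrays (0 ng/ml) as circles, BMP9 arrays (50 ng/ml) as squares and the group mean as a bar. The brighter CCN1 probe set separates the groups by 1.01, and 12 of the 15 probe sets have means under 4.

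The plot of values by array shows how few CCN probe sets are bright. Only 3 had a mean log2 value of at least 5 over the 6 arrays, 1 each for CCN1, CCN3 and CCN4, while the other 12 lay between 1.83 and 3.72. The table has no detection calls, but it holds 23 background probe sets, each named for the number of G and C bases in its probes. Their mean rose from 1.67 at 3 such bases through 2.39 at 14 to 10.0 at 25. Of the 15 CCN probe sets, 6 lay under the median background probe set, which is the one with 14 G and C bases, and 9 under the one with 16, at 3.48. The base composition of the CCN probes is not given in the sources used here. Hence no CCN probe set can be matched to its own background, and none is known from its level alone to lie above it. Even the bright ones, at 7.72 for CCN1, 6.39 for CCN4 and 5.21 for CCN3, lay below the background probe sets with 24, 22 and 20 G and C bases (8.06, 6.65 and 5.23). Only 0.298% of all probe sets lay above the highest background value on all 6 arrays. Background probe sets with 22, 23 and 24 G and C bases differed between groups by 0.06, 0.05 and 0.06. The one with 25 differed by 0.21.

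**Figure D2:**
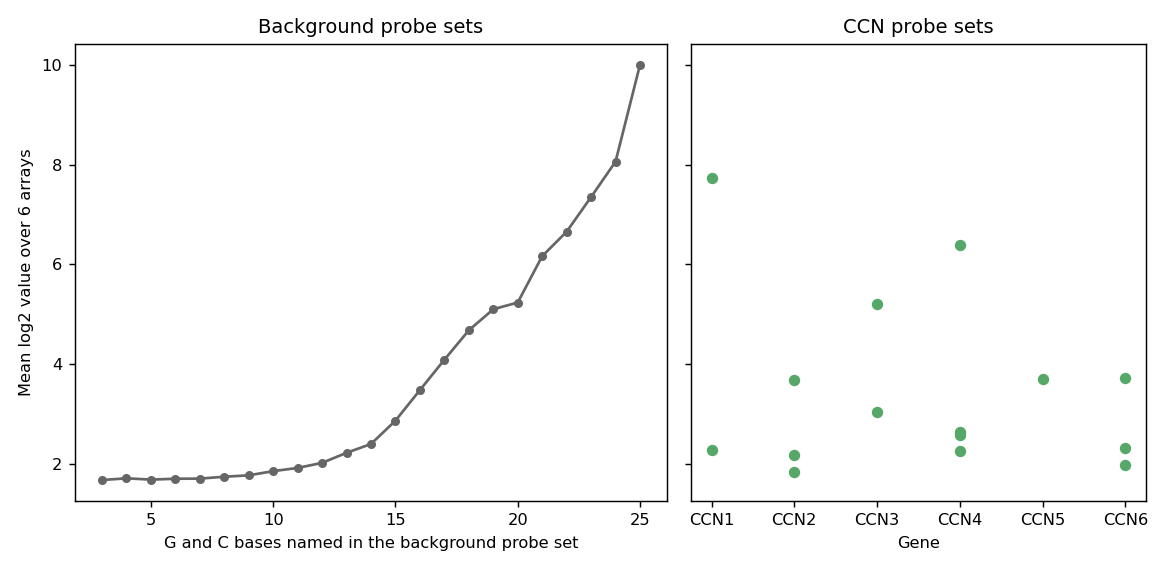
Mean log2 value over the 6 arrays of the 23 background probe sets against the G and C bases they are named for (left), and of the CCN probe sets by gene (right). The background spans 1.67 to 10.0 with base composition, and 12 CCN probe sets lie within the part of that span below 4.

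CCN2 encodes connective tissue growth factor, which binds TGF-beta, integrins and proteoglycans. Its brightest probe set, 11715440_a_at, read 3.79, 3.45 and 3.70 in control and 3.72, 3.57 and 3.80 with BMP9, and the groups overlapped. The difference was 0.05 (SE 0.10, 95% interval -0.18 to 0.28), an interval that holds 0 and excludes a rise of the size measured for CCN1. Probe set 11715441_a_at read 1.88, 2.01 and 2.09 in control and 2.46, 2.25 and 2.30 with BMP9, without overlap, and differed by 0.34 (SE 0.091, 95% interval 0.14 to 0.54). Probe set 11715442_s_at went from 1.77 ± 0.064 to 1.89 ± 0.036 (SD, n = 3), also without overlap. All 3 differences were positive and none was called. Since a probe set near background compresses a change, the small CCN2 differences do not show that CCN2 mRNA was steady.

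CCN3, which opposes CCN2 in several matrix settings, had probe sets whose differences were opposite in sign. The brighter, 11747259_a_at, read 5.35, 5.30 and 5.27 in control and 5.15, 5.20 and 4.98 with BMP9. Each BMP9 array lay below each control array, with a difference of -0.20 (SE 0.084, 95% interval -0.38 to -0.01). The dimmer, 11723033_at, read 2.84, 2.98 and 2.79 in control and 3.28, 3.04 and 3.26 with BMP9. There each BMP9 array lay above each control array, and the difference was 0.32 (SE 0.093). Neither was called. These values give CCN3 no single direction on this array.

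CCN4, first known as a WNT1-induced gene, was read by 4 probe sets. The only bright one, 11731823_a_at, read 6.49, 6.41 and 6.65 in control and 6.30, 6.26 and 6.25 with BMP9. The BMP9 arrays lay below the control arrays and close together, with an SD of 0.025 against 0.12. The difference was -0.24 (SE 0.085, 95% interval -0.43 to -0.06), or 1.18-fold lower, and it was not called. The other 3 CCN4 probe sets had means of 2.26 to 2.64 and overlapping groups, with differences of 0.01 to 0.04.

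CCN5, the member without the cystine knot, had a single probe set, 11735059_a_at, which read 3.82, 3.66 and 3.50 in control and 3.80, 3.80 and 3.63 with BMP9. The groups overlapped, and the difference was 0.09 (SE 0.098, 95% interval -0.13 to 0.30). CCN6, whose loss causes progressive pseudorheumatoid dysplasia, had the largest difference after CCN1. Its probe set 11762286_at read 3.31, 3.65 and 3.40 in control and 3.74, 4.03 and 4.19 with BMP9, a difference of 0.54 (SE 0.13, 95% interval 0.26 to 0.81) without overlap. By contrast, 11731312_s_at read 2.55, 2.46 and 2.47 in control and 2.14, 2.22 and 2.06 with BMP9, a difference of -0.35 (SE 0.080) without overlap. The remaining CCN6 probe set overlapped, at 1.96 ± 0.13 and 1.96 ± 0.093 (SD, n = 3). No CCN6 probe set was called, and its separated probe sets pointed opposite ways.

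**Figure D3:**
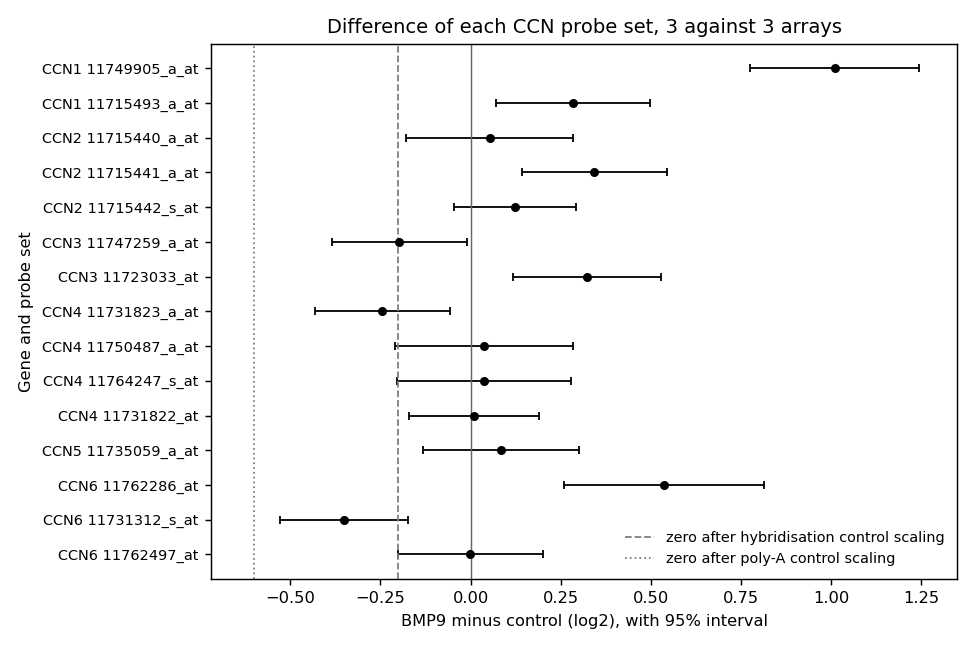
Difference of each CCN probe set, BMP9 minus control in log2 units, with its 95% interval from the fit over all probe sets. The dashed and dotted lines mark where 0 would lie after scaling the arrays to their hybridisation or poly-A controls, at -0.20 and -0.60. Only the brighter CCN1 probe set reaches 1.01, and 7 of 15 intervals hold 0.

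Of the 15 probe sets, 1 was called higher at a limma adjusted p under 0.05 and 0 were called lower. Over all probe sets 0.134% were called higher, 0.276% lower and 0.41% in either direction. The 95% interval, which corresponds to an unadjusted p under 0.05, lay above 0 for 5 CCN probe sets and below 0 for 3, while 5.71% of all probe sets were higher and 5.65% lower at that p. The groups did not overlap in 9 of 15, with BMP9 above in 6 and below in 3, against 17.3% of all probe sets, of which 9.09% had BMP9 above and 8.17% below. Probe sets of 1 gene share their transcript and are not separate evidence. The plot of differences shows that the median over the 15 was 0.05, against 0.01 over all probe sets.

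The directions of the small differences rest on the scale. The 9 hybridisation controls of the arrays dropped by 0.20 and the 12 poly-A controls by 0.60 on the log2 scale from control to BMP9 arrays. Scaling to them moved the median of all probe sets to 0.21 and 0.61. On the deposited scale 11 CCN differences were positive. With hybridisation scaling 13 were, and the brighter CCN3 probe set turned to 0.0048. With poly-A scaling all 15 were positive, CCN4 turning to 0.36 and the lower CCN6 probe set to 0.25. The CCN1 difference was 1.01, 1.21 and 1.61 on the 3 scales, since each scaling adds the same amount to every probe set.

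Genes around the family were compared with 1 probe set per gene, the one with the highest mean, where 0.684% of 18132 genes were called, 0.232% higher and 0.452% lower, with a median difference of 0.01. Of 17 measured receptors and co-receptors of CCN proteins, 1 rose and 1 fell, with a median of 0.03. FGFR2, a fibroblast growth factor receptor that can bind CCN2, rose from 5.36 ± 0.29 to 6.18 ± 0.048 (SD, n = 3), by 0.82 (SE 0.13, limma adjusted p = 0.0195). FGFR2 kept its call only when control replicate 2 was left out (0.98), with 0.69 to 0.83 and no call without any other array. Only 1 of its 12 probe sets was called when each was tested on its own. ITGB2, the beta chain of a leukocyte integrin, fell by 0.44 (SE 0.077, limma adjusted p = 0.036), which lost its call whichever array was left out (-0.47 to -0.39) and turned to 0.16 with poly-A scaling. The single ITGB2 probe set was not called in the fit across all probe sets. The integrin chain ITGA5 differed by 0.27 and ITGA2B by -0.20, neither of which passed, and ITGA2B turned positive with poly-A scaling.

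The YAP/TAZ-TEAD and SRF-MRTF lists gave no calls in the fit over all genes. Hybridisation scaling, which shifts every gene upward, called 9437 of all 49293 probe sets. It gave 5 YAP/TAZ-TEAD and 6 SRF-MRTF calls. These are mRNA values. The activity of either pathway was not measured, and its part in the CCN1 difference was not tested. Of 26 measured YAP/TAZ-TEAD genes, a list that leaves out the CCN genes, 0 were called by limma, with a median of 0.02. At an unadjusted limma p under 0.05, 2 were higher and 1 lower. Over all probe sets 5.71% were higher and 5.65% lower at that p, a share not counted over genes. The tissue factor gene F3, a TEAD target, stood at 4.74 ± 0.24 and 5.21 ± 0.063 (SD, n = 3) and YAP1 itself at 5.25 ± 0.059 and 4.88 ± 0.24. STK3 and LATS2, kinases of the Hippo pathway, differed by 0.21 and -0.17. Of 19 SRF-MRTF genes 0 were called, with 3 higher and 4 lower at an unadjusted p under 0.05 and a median of -0.01. A minimum mean of 7 gave 3 calls there, ACTB, CNN2 and MRTFB, and an intensity trend 1, ACTB. ACTB differed by 0.28 and JUNB by 0.26, against -0.35 for FHL2 and -0.27 for the SRF coactivator gene MRTFB. All of these negative differences turned positive with poly-A scaling.

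The SMAD1/5/9 targets of BMP were the list with the most calls: 5 of 18 rose and 0 fell, with a median of 0.17. At an unadjusted limma p under 0.05, where 5.71% of all probe sets were higher, 8 of the list were higher. Whether they are direct targets in LX-2 was not tested. SMAD6 rose by 3.01, GREM1 by 1.67, ID3 by 1.63, ID2 by 1.21 and ID4 by 0.99 (limma adjusted p 3.97e-07 to 0.0492). With each probe set tested on its own, SMAD6 and ID3 were called in 2 of 3, GREM1 and ID4 in 1 of 4 and ID2 in 0 of 2. The GREM1 probe sets ranged from -0.18 to 1.67, and their average differed by 0.36 without a call. ID1 differed by 0.14 and was not called, but was called when its probe sets were averaged. The ID2 call ended without control replicate 2 or any single BMP9 array, over a range of 0.87 to 1.44. The ID4 difference was 0.13 and not called when probe sets that share probes were dropped. Of 16 SMAD2/3 targets of TGF-beta 0 were called by limma. At an unadjusted p under 0.05, with 5.71% of all probe sets higher and 5.65% lower, 2 of the list were higher and 1 lower. FN1, the fibronectin gene, differed by 0.28 (SE 0.079) there, TGFBI by 0.10 and the basement membrane collagen gene COL4A1 by -0.37, which turned positive with poly-A scaling.

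**Figure D4:**
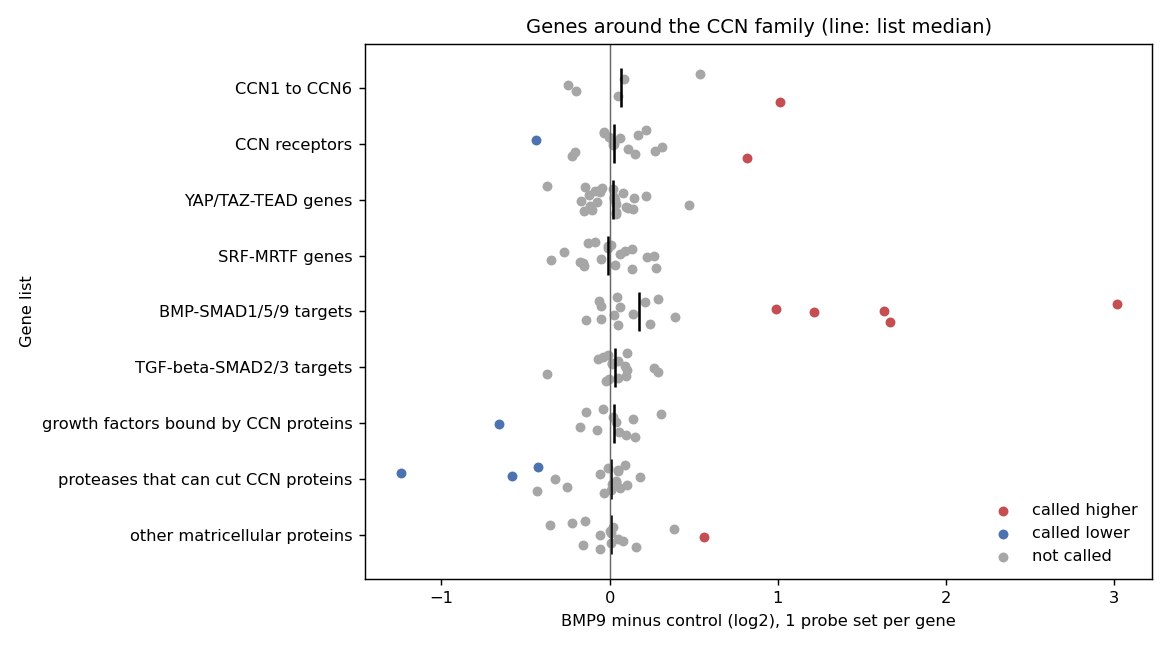
Log2 difference (BMP9 minus control) of each gene in the lists around the CCN family, 1 probe set per gene, with red for genes called higher, blue for genes called lower, grey for the rest and a line at each list's median. Of the 18 SMAD1/5/9 targets 5 were called higher, and most genes of the other lists lie close to 0.

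Among 12 growth factors that CCN proteins can bind, 1 fell and 0 rose. IGF1, insulin-like growth factor 1, went from 5.65 ± 0.074 to 4.99 ± 0.11 (SD, n = 3), lower by 0.66 (SE 0.084, limma adjusted p = 0.00542), and was called whichever array was left out. With poly-A scaling it differed by -0.06 and was not called, and averaging its probe sets gave -0.28 without a call. Only 1 of its 5 probe sets was called when each was tested on its own. TGFB3 differed by 0.31, GDF5 by -0.18 and VEGFA by -0.14, none passing, and GDF5 and VEGFA turned positive with either control scaling. Of 19 proteases that can cut CCN proteins 3 fell and 0 rose: MMP2, MMP14 and PLAU. When each probe set was tested on its own, 0 of 4 MMP14 and 0 of 3 PLAU probe sets were called. The list had a median of 0.01. MMP2 fell by 1.24 (SE 0.076) in 1 of its 4 probe sets and kept its call whichever array was left out. PLAU (-0.42) and MMP14 (-0.58) lost theirs each time, over ranges of -0.47 to -0.40 and -0.66 to -0.46, and turned positive with poly-A scaling. ADAMTS1 differed by -0.43 (limma adjusted p = 0.0512), which also turned positive there.

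Of 15 other matricellular genes 1 rose and 0 fell, with a median of 0.01. SPARCL1, a relative of SPARC, rose by 0.56 (SE 0.094, limma adjusted p = 0.0272), with 2 of its 3 probe sets called on their own. It kept its call only when control replicate 3 was left out (0.64), with 0.48 to 0.59 and no call without any other array. Tenascin C (TNC) differed by -0.36, tenascin R (TNR) by -0.23 and thrombospondin 3 (THBS3) by 0.38, none passing, and both tenascins turned positive with poly-A scaling. With a minimum mean of 5 the list had 3 calls, TNC and THBS3 among them, and with an intensity trend 2.

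The genes whose pattern over the 6 arrays was most like that of CCN1, among 6572 with a mean of at least 5, were GSPT1 (Pearson r = 0.996), PIAS3 (0.995) and PSMD8 (0.990). They encode a translation release factor, a SUMO ligase and a proteasome subunit. Their differences were 0.29, 0.28 and 0.06, much smaller than that of CCN1, so likeness of pattern here is not likeness of size. For CCN3 the nearest were RGL1 (0.990), MDM2 (0.984) and WSB1 (0.984), and for CCN4 KBTBD2 (0.992), DNPH1 (0.988) and STING1 (0.986). The points of each r are the same 6 arrays in 2 groups, so r is given as a description.

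Pearson's r between arrays was 0.990 to 0.994 over all probe sets, and no array stood apart. Of 17 stellate cell markers COL1A1 stood at 9.73 ± 0.16 and VIM at 11.6 ± 0.099 in control (SD, n = 3), while ACTA2 (3.90) and LUM (1.86) were dim. VIM differed by -0.37 (limma adjusted p = 0.0786) and was not called, turning to 0.23 with poly-A scaling. It was called with a minimum mean of 5 or 7 and with an intensity trend. At an unadjusted limma p under 0.05, 4 stellate cell markers were lower and 1 higher. COL3A1 (-1.29) and PDGFRA (-1.03) fell with BMP9, PDGFRA losing its call without BMP9 replicate 1 (-0.95) or 3 (-1.04). On their own, 3 of 5 COL3A1 probe sets and 1 of 4 PDGFRA probe sets were called. Those of PDGFRA ranged from -1.03 to 0.21, and their average differed by -0.15 without a call. The mean of the list was 5.65 to 5.81 on the control arrays and 5.55 to 5.62 on the BMP9 arrays, and its part in the CCN values was not tested. None of the markers of hepatocytes (9 measured), endothelial cells (10), macrophages and leukocytes (10) or cholangiocytes (7) was called by limma. Hybridisation scaling gave 1, 4, 3 and 3 calls in that order, and poly-A scaling 9, 10, 10 and 7. The scalings called 9437 and 47449 of all 49293 probe sets. A minimum mean of 7 gave 1 cholangiocyte call, CLDN4. At an unadjusted p under 0.05, 1 hepatocyte marker was higher and 1 lower, and 2 cholangiocyte markers were higher. Over all probe sets 5.71% were higher and 5.65% lower at that p. Levels in control spread widely within each list (SD, n = 3). Hepatocyte markers included ALB at 4.36 ± 0.083 and TTR at 5.73 ± 0.056. Endothelial markers included EMCN at 2.34 ± 0.13 and VWF at 5.83 ± 0.0037. Macrophage and leukocyte markers included PTPRC at 2.19 ± 0.092 and CD68 at 6.99 ± 0.074. Cholangiocyte markers included EPCAM at 1.92 ± 0.020 and CLDN4 at 7.08 ± 0.031. Some of these lay above the stellate cell marker ACTA2 (3.90), so these levels do not tell cell types apart. In bulk RNA, fewer cells of a type and less RNA per cell cannot be told apart.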

How the data were processed

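The 6 arrays were deposited by the authors as log2 values per probe set, made with RMA per the submitters' processing notes. RMA's settings and the log base are unstated, and log2 was taken from the range of the values. RMA equalises array distributions, so a shift common to most genes is mostly lost. Of 49395 probe sets, 102 were array controls, 44988 came with 1 gene symbol, 1832 with several and 2473 with none. Of the single-gene ones, 44961 matched a current gene by Entrez identifier, and 0 symbols changed.

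The groups were compared by limma 3.58.1 in R 4.3.3 (lmFit and eBayes, no covariate), with Benjamini-Hochberg adjustment over all 49293 probe sets, or over 18132 genes for the lists, at a threshold of 0.05. The fit was tested on simulated data. Members, lists and naming rule were chosen with earlier results of these data known. From each list, called genes and others among the 4 smallest p were named, and ID1 besides. Of the marker lists, the called ones and examples of bright and dim ones were named. Likeness used Pearson's r with a minimum mean of 5. Figures were drawn with matplotlib 3.10.9.

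Deviations from the group means correlated at -0.0017, 0.034 and -0.023 between same-numbered arrays, so no pairing by replicate number was seen. The labels do not say whether same-numbered samples were handled together. Alternatives were a block for the replicate number, renewed quantile normalisation, median centring, scaling to hybridisation or poly-A controls, a minimum mean of 5 or 7, an intensity trend with a robust prior, other sets of probe sets, averaging probe sets and each array left out. The number of arrays limits the precision. Protein sequences were not used here.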

Additional observations from a re-analysis of the deposited data

How the results depend on the processing

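The count of 1 CCN probe set called higher, that of CCN1, and 0 lower held under every alternative but the control scalings, which gave 6 and 14 higher and 0 lower. The family was chosen by the CCN1 difference, and every alternative used the same arrays, so this count is not separate evidence. The CCN1 difference ranged from 0.65, with its probe sets averaged, to 1.61. The replicate number as a replicate block gave 1 CCN call, 160 calls over all probe sets against 202, and 12 called list genes against 14, losing ITGB2, PLAU and MMP14 and gaining DCN, with 2 of 6 arrays correlating best with their own number. Over all probe sets, 9437 were called with hybridisation scaling, 47449 with poly-A scaling, 429 with an intensity trend, 449 and 375 with a minimum mean of 5 and 7, 124 with 1 probe set per gene, 87 with averaged probe sets and 88 to 137 with an array left out. Called list genes numbered 14, but 59 with hybridisation scaling, 172 with poly-A scaling, 6 with averaged probe sets and 7 to 10 with an array left out. With poly-A scaling 3 called falls turned positive, ITGB2 to 0.16, PLAU to 0.18 and MMP14 to 0.021. The ID4 call ended without probe sets that share probes (0.13). Averaging probe sets ended the calls of FGFR2 (0.20), IGF1, MMP2 (-0.28), PLAU, MMP14, ID2, ID4, GREM1 and PDGFRA. The scalings add a shift to every probe set, which raises their counts; the cause of the other changes was not tested. Of 223 CCN differences under the alternatives, 33 moved by more than the spread between arrays, 29 of them under the control scalings. Signal over background limits the CCN probe sets, as none could be matched to its own background and 12 of the 15 had means under 4.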
